A study of Mus musculus with 4 samples.

Results

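The smooth muscle genes of the neonatal mouse testis were followed through a day of organ culture with WIN 18,446, a known inhibitor of the retinaldehyde dehydrogenases, which make retinoic acid. The set holds 10 genes, of 18193 genes that the array annotation names by a single symbol: Acta2, Myh11, Tagln, Cnn1, Des, Actg2, Lmod1, Myocd, Smtn and Cald1. They were chosen by symbol, with earlier results of these data known, as were the gene lists further below. Shares of members or list genes set against all probe sets or genes are therefore descriptions and not tests. Every probe set that the array annotation gives to a single one of the 10 was taken, 19 in all. Testes of strain 129 mice at 2 days post partum (dpp) were cultured for 24 h with WIN 18,446 at 1 µM or with dimethyl sulfoxide, the vehicle that served as control, both in medium with fetal bovine serum. Total RNA was measured on Affymetrix Mouse Genome 430 2.0 microarrays, with 2 arrays in each group. Whether the numbered samples are separate animals, pools of testes or cultures is not stated in the labels, so p-values cover the variation among these arrays and no more, and it may be technical.

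Peritubular myoid cells are flat, contractile cells that surround the seminiferous cords and lay down their basement membrane together with the Sertoli cells. They carry a smooth muscle programme, in which the serum response factor SRF binds CArG boxes in promoters and its coactivator myocardin turns on the genes of contractile actin, myosin and their regulators. The same programme runs in the smooth muscle of blood vessels, so none of the 10 genes marks the peritubular cell alone. Cald1 is also made by cells that are not muscle, and Des by striated muscle and by pericytes.

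The RefSeq promoter table for the build GRCm38.p6 holds windows of 300 bases, from 250 before to 50 after a gene's start, for 6 of the genes, in 7 windows. These were searched for the CArG box, whose 10-base pattern reads the same on both strands. No window was available for Myh11, Tagln, Actg2 and Myocd, so they were not searched. An exact box was found in 0 of the 7 windows and in 1.63% of all 32851 windows of the table. With at most 1 mismatch allowed, a box was found in 3 of the 7 windows, against 21.1% of all windows. The windows of Acta2 and Lmod1 each held 2, apart from each other, and 3.70% of all windows held at least 2. The remaining window with a box was of Cald1, with 1 that begins 203 bases before the start, and the other Cald1 window held none. The retinoid receptor half-site AGGTCA, searched on both strands, was in 0 of the 7 windows and in 16.3% of all. A match is a description of letters, and the lack of one says nothing about sequence outside the window. Printed here are the windows of Acta2 and Lmod1, which hold 2 boxes each, and that of Des, the gene with the difference that passed the test. Capitals mark a CArG box with 1 mismatch.
Acta2, chr19:34255324-34255623, minus strand: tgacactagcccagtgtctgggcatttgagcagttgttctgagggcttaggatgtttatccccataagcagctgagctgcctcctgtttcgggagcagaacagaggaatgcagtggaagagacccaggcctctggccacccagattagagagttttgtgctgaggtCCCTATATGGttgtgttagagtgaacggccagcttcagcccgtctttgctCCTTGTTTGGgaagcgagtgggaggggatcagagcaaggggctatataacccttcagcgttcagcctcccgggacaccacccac
Lmod1, chr1:135324563-135324862, plus strand: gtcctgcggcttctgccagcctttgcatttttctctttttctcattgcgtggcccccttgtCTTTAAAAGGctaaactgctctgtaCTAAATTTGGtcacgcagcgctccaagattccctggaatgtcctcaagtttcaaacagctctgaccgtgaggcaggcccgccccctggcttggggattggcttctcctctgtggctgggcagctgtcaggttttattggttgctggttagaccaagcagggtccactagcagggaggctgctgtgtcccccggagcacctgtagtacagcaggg
Des, chr1:75360042-75360341, plus strand: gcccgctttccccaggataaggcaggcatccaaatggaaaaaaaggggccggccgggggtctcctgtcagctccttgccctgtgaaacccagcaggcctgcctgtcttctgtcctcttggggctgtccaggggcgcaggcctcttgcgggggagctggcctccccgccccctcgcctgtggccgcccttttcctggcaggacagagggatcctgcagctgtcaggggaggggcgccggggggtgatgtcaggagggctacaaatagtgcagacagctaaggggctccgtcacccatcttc
The boxes of Acta2 begin 84 and 34 bases before the start, and those of Lmod1 189 and 164 bases before it.

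Levels are given as log2 values, as the authors normalized them between arrays, and differences as WIN 18,446 minus control on the log2 scale. Array medians lay between 3.72 and 3.83. Background was set at 2.22, the top reading among 27 probe sets for bacterial transcripts that mouse RNA lacks. Tests were run with limma on the 20895 probe sets whose 4 arrays averaged 5 or more, and a probe set was called at a Benjamini-Hochberg adjusted p under 0.05 over all of them. WIN 18,446 array 1 stood apart in the 5′ control probe set for the 18S ribosomal RNA, at 6.55 against 8.12 to 8.67 elsewhere. With so few arrays, every value has limited precision.

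Desmin was called as lower in the treated testes, and 0 of the other smooth muscle genes passed the test. The desmin call was lost with no level filter and with each array left out in turn, as given below. Of the 19 probe sets, 10 passed the level filter, which cover 8 of the 10 genes. Among these 10, 1 was called, that of Des, which was lower, and 9 were not. Over all probe sets tested 5.18% were called, 2.91% as lower. Lower means with WIN 18,446 were seen in 8 of the 10, against 53.5% of all probe sets tested. Groups were apart, without overlap, in 7 of 10, against 53.1% of all, and in each of these 7 both treated arrays lay below both control arrays, against 29.3% of all. An unadjusted p under 0.05 was given to 6 of the 10, against 22.0% of all. The median difference was -0.31 over the 10 probe sets and -0.02 over all tested.

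**Figure D1:**
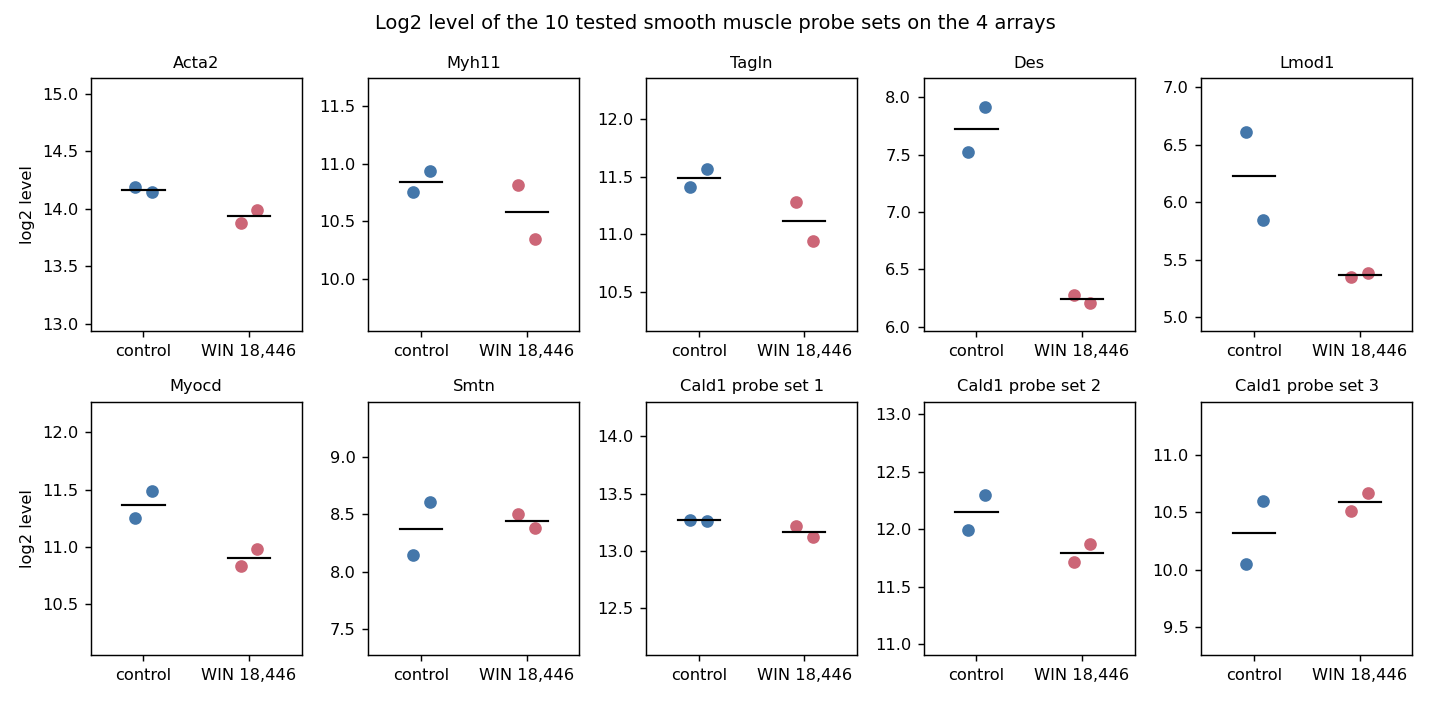
Log2 level (vertical axis, the same span of 2.2 log2 units in each panel) of the 10 tested probe sets on each array, with control arrays in blue, WIN 18,446 arrays in red and group means as black lines. Des shows the widest gap between groups, while the arrays of Smtn, Myh11 and the Cald1 probe set 3 overlap between groups.

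Actin of smooth muscle comes in an alpha form, encoded by Acta2, and a gamma form, encoded by Actg2. The Acta2 probe set 1416454_s_at read 14.19 and 14.14 with control, and 13.88 and 13.99 with WIN 18,446. The groups did not overlap, but the gap was narrow. The difference was -0.23 (SE 0.06, 95% interval -0.39 to -0.08), and it was not called by limma (adjusted p = 0.103). The ending of this probe set's name marks probes that can bind transcripts of more than 1 gene, and the actins are close in sequence, so its level may include other actins. The other 2 probe sets of Acta2 lay below background on every array, between 2.07 and 2.17.

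Actg2 was measured by 1 probe set, which read 2.45 and 3.15 with control and 2.37 and 2.38 with WIN 18,446. These levels were just above background, and control array 2 stood apart from the other arrays. The probe set was under the level filter and was not tested. Lmod1 encodes leiomodin, which nucleates actin filaments in smooth muscle. It read 6.61 and 5.84 with control, and 5.35 and 5.39 with WIN 18,446. The treated arrays were close to each other and below both control arrays, which differed by 0.77. The difference of -0.86 (SE 0.32, 95% interval -1.68 to -0.05) was not called (limma, adjusted p = 0.206). It was -0.48 without control array 1 and -1.24 without control array 2.

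Myh11 encodes the myosin heavy chain that smooth muscle contracts with. Its probe set 1448962_at read 10.75 and 10.94 with control, and 10.82 and 10.35 with WIN 18,446. The groups overlapped, as treated array 1 lay between the control arrays. The difference was -0.26 (95% interval -0.73 to 0.21, limma adjusted p = 0.488), so the data allow a fall of 0.73 as well as a small rise. It was -0.49 without treated array 1 and -0.03 without treated array 2. A second Myh11 probe set lay below background on every array.

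Of the actin-binding proteins, transgelin (Tagln, also called SM22) stood at 11.41 and 11.57 with control and at 11.28 and 10.94 with WIN 18,446. Both treated arrays were lower than both control arrays, and treated array 2 was the lowest. The difference was -0.38 (SE 0.14, 95% interval -0.74 to -0.01) and was not called (limma, adjusted p = 0.217). It was -0.54 without treated array 1 and -0.21 without treated array 2. Calponin 1 (Cnn1), which restrains the actin-activated myosin ATPase and is a marker of contractile smooth muscle, read between 2.02 and 2.04 in its 1 probe set, below background on every array. No level or fold could be given for it in either group.

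Smoothelin (Smtn), a cytoskeletal protein of contractile smooth muscle, read 8.15 and 8.61 with control and 8.50 and 8.38 with WIN 18,446. The treated arrays lay between the control arrays, and the difference was 0.06 (95% interval -0.49 to 0.62, limma adjusted p = 0.899). Its sign turned without control array 1, to -0.17.

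Caldesmon (Cald1) binds actin and myosin and has a long smooth muscle form and a short form made by most cells. Its 3 tested probe sets, numbered 1 to 3 in the plots in the order given here, had differences of unlike sign. The probe set 1424769_s_at read 13.27 and 13.26 with control, and 13.22 and 13.12 with WIN 18,446. Its difference was -0.10 (limma, adjusted p = 0.459), and -0.05 without treated array 2. The name of this probe set ends as that of the Acta2 probe set does, so it may also bind transcripts of other genes. The probe set 1424770_at read 11.996 and 12.298 with control, and 11.72 and 11.87 with WIN 18,446, a difference of -0.35 (SE 0.13, limma adjusted p = 0.204) that was -0.20 without control array 2. In both of them the groups did not overlap. The probe set 1424768_at read 10.04 and 10.59 with control, and 10.51 and 10.67 with WIN 18,446. There the groups overlapped, and the difference of 0.27 (SE 0.21, limma adjusted p = 0.514) became -0.0040 without control array 1. The array annotation does not say which caldesmon form each probe set reads. Of the 2 Cald1 probe sets under the level filter, 1433147_at stood at 3.90 and 4.05 with control and 3.28 and 3.42 with WIN 18,446, and 1433146_at between 4.19 and 4.28 on the 4 arrays.

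Desmin (Des) is the intermediate filament that links the contractile apparatus of muscle cells to their membrane and organelles. Its probe set 1426731_at read 7.53 and 7.91 with control, and 6.28 and 6.21 with WIN 18,446. The treated arrays lay close together and more than a log2 unit below the lower control array. Desmin fell 2.77-fold, from 7.72 ± 0.27 (log2, SD, n = 2) to 6.25 ± 0.05, and limma gave a log2 difference of -1.47 (SE 0.23, 95% interval -2.05 to -0.90, adjusted p = 0.0349). A larger fall was seen in 1.35% of all probe sets tested. The difference was -1.67 and -1.28 without control arrays 1 and 2, and -1.51 and -1.44 without treated arrays 1 and 2. The call was lost each time, with adjusted p-values of 0.28 and 0.228 without control arrays 1 and 2 and of 0.0638 and 0.0542 without treated arrays 1 and 2 (limma). It was also lost with no level filter (limma, adjusted p = 0.186). A second Des probe set, 1426732_at, read between 2.01 and 2.02, below background on every array.

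**Figure D2:**
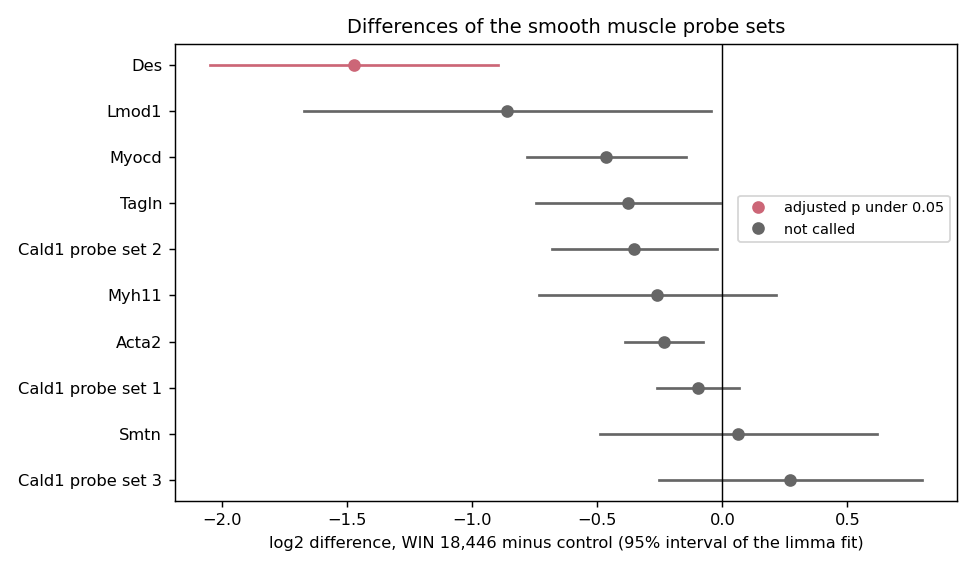
Log2 difference, WIN 18,446 minus control (horizontal axis), of the 10 tested probe sets, as points with the 95% interval of the limma fit. Des at -1.47 is the called one, drawn in red, and the points of Smtn (0.06) and of the Cald1 probe set 3 (0.27) lie above 0.

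Myocd encodes myocardin, the SRF coactivator that switches on the smooth muscle programme. Its probe set 1425978_at read 11.25 and 11.49 with control, and 10.83 and 10.98 with WIN 18,446. Both treated arrays were below both control arrays. The difference of -0.46 (SE 0.12, 95% interval -0.78 to -0.15) was not called (limma, adjusted p = 0.112). The second probe set of Myocd was at 2.28 and 2.27 with control and at 2.08 and 2.25 with WIN 18,446, on either side of the background level, and was not tested.

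The members also varied within the control group. The median gap between the control arrays was 0.27 over the 10 probe sets tested, against 0.12 over all probe sets tested, while between the treated arrays it was 0.13 against 0.16. Control array 2 was the higher one in 7 of the 10, against 47.5% of all. In Lmod1 it went the other way, with control array 1 higher.

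**Figure D3:**
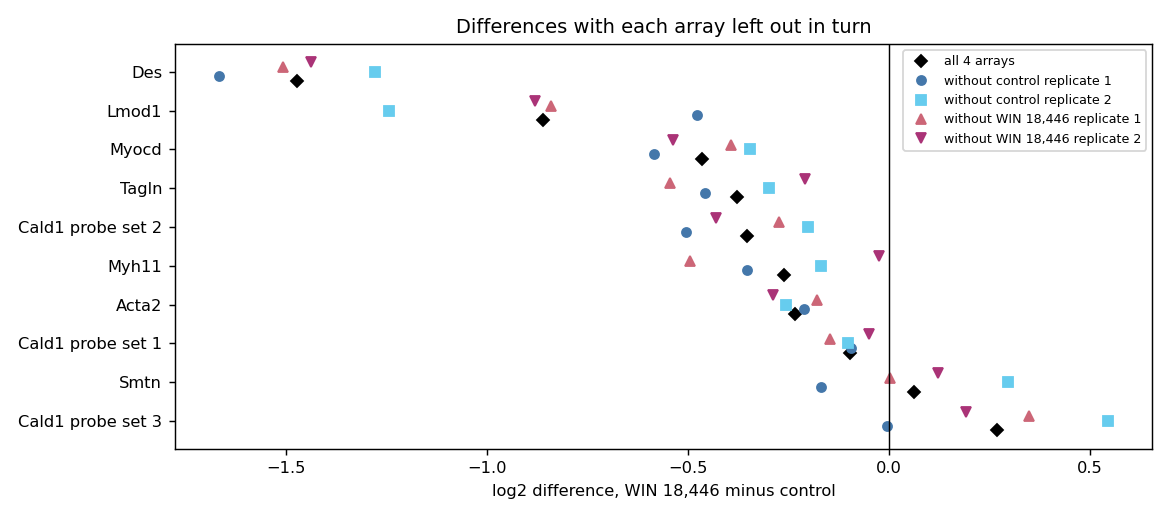
Log2 difference, WIN 18,446 minus control (horizontal axis), of the 10 tested probe sets with all 4 arrays (black diamonds) and with each array left out in turn (coloured symbols). Des lies between -1.67 and -1.28 throughout, while Smtn and the Cald1 probe set 3 cross 0 without control array 1.

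Each gene of the lists that follow is represented by its tested probe set of highest mean, which gives 10970 genes. Of these, 6.40% were called, 3.46% as lower and 2.94% as higher. Calls and p-values of the list genes are those of the limma fit over all 20895 probe sets. In that fit 22.0% of probe sets had an unadjusted p under 0.05. A separate limma fit on the 10970 probe sets alone gave 2906 of them an unadjusted p under 0.05, and is not set against the lists. Of the members, 7 of 8 tested genes had a lower mean with WIN 18,446, with a median difference of -0.32, against 54.8% and -0.03 over all genes tested. Over the 10 genes, the summed linear level (2 to the power of the log2 level) was 36016 and 36512 on the control arrays and 31201 and 30906 on the treated arrays, of which the Acta2 probe set gave 48.3% to 52.6%. In RNA of a whole organ, fewer cells of a type and less RNA per cell cannot be told apart.

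The list of SRF, its myocardin-family and ETS partners and further transcription regulators of smooth muscle also holds Myocd. Limma called 0 of its 11 tested genes. A lower mean with WIN 18,446 was seen in 10 of the 11, against 54.8% of all genes tested. An unadjusted p under 0.05 was given by limma to 4 of the 11, against 22.0% of all probe sets tested. The median difference was -0.11. Srf itself read 9.76 and 9.61 with control and 9.64 and 9.63 with WIN 18,446, and its coactivator Mrtfa 10.39 and 10.38 against 10.37 and 10.25. In both genes the gap between group means was under 0.1 log2 units. The LIM domain proteins Fhl1 and Fhl2 differed by -0.38 and -0.53 (limma, adjusted p = 0.0628 and 0.155), and Tead1, a transcription factor of the Hippo pathway, by -0.27 (adjusted p = 0.182).

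The other contractile and cytoskeletal genes of smooth muscle did not pass the test in either direction, with 0 of 45 tested genes called by limma. An unadjusted p under 0.05 was given by limma to 12 of the 45, against 22.0% of all probe sets tested. A lower mean with WIN 18,446 was seen in 29 and a higher mean in 16. The median difference of the list was -0.11. The 4 of smallest p went both ways. Rhob, a small GTPase that acts on the actin cytoskeleton, differed by 0.43 (limma, adjusted p = 0.0502). Tpm4, a tropomyosin found in many cell types, differed by 0.28 and the small heat shock protein Hspb6 by 0.73 (adjusted p = 0.0546 and 0.0591). Ldb3, a protein of the Z-disc of striated muscle, differed by -1.68 (adjusted p = 0.0691); it read 4.09 and 4.83 with WIN 18,446, and passed the level filter through the control arrays, at 6.41 and 5.87. Mylk is the kinase that starts smooth muscle contraction, and Myl9 the light chain it phosphorylates. They differed by -0.32 and -0.38 (limma, adjusted p = 0.131 and 0.148). Of the same list, Ppp1r12b, Ppp1r12a and Ppp1r14a differed by 0.49, 0.002 and -0.33 (limma, adjusted p = 0.117, 0.993 and 0.474). Mylk, Myl9 and these Ppp1r genes were chosen after their values were seen. Pln, Kcnmb1, Tagln3 and Mustn1 lay at background on every array.

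**Figure D4:**
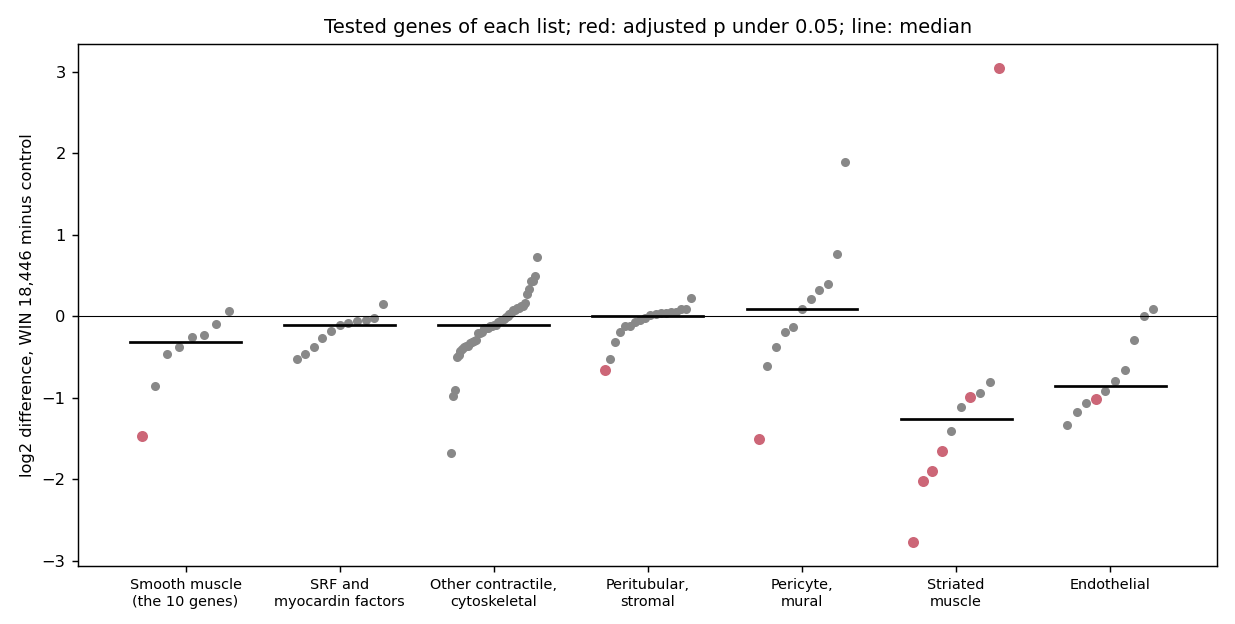
Log2 difference, WIN 18,446 minus control (vertical axis), of the tested genes of 7 lists, 1 point for each gene, red where the adjusted p was under 0.05, with the list median as a line. The striated muscle list has its median at -1.26 and 6 called genes, and the contractile and cytoskeletal list has its median at -0.11 and 0 called genes.

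Lists of genes of other cells that can make desmin, or that lie beside the peritubular cells, were read in the same samples. Among 10 tested genes of striated muscle, 5 fell, 1 rose and 4 were not called, and the median difference was -1.26. The troponin subunits Tnni3, Tnni1 and Tnnt1 fell, with log2 differences of -0.99, -2.77 and -2.02 (limma, adjusted p = 0.00869, 0.0145 and 0.0176). The actinin Actn3 and the cardiac myosin Myh6 fell as well, with differences of -1.90 and -1.65 (adjusted p = 0.0241 and 0.0432), and the troponin Tnnc1 rose by 3.05 (adjusted p = 0.00967). Tnnc1 read 4.32 and 4.37 with control, and 7.33 and 7.45 with WIN 18,446, so it passed the level filter through the treated arrays, where it was high. The summed linear level of the 29 genes of this list was 22171 and 21742 with control, and 10356 and 11400 with WIN 18,446. Tnni3 alone gave 86.6% to 88.7% of this sum on each array, and without it the sums were 2821 and 2910 with control, and 1174 and 1325 with WIN 18,446. The skeletal actin Acta1, the cardiac actin Actc1, the muscle creatine kinase Ckm, the determination factors Myod1, Myog and Myf6, and Tnnc2 lay at background on every array. The part of striated muscle genes in the desmin result was not tested.

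Among 11 tested genes of pericytes and vascular mural cells, 1 fell, 0 rose and 10 were not called, with a median difference of 0.09. Higd1b, a mitochondrial protein that marks pericytes, read 8.29 and 8.69 with control and 7.01 and 6.97 with WIN 18,446, and fell (log2 difference -1.505, limma adjusted p = 0.03). Heyl, a Notch target, and the potassium channel subunit Kcnj8 differed by 0.76 and -0.61 (adjusted p = 0.0975 and 0.203), and the adhesion molecule Mcam by 0.32 (adjusted p = 0.244). The summed level of the list was 12756 and 17371 with control, and 16175 and 14862 with WIN 18,446, so the groups overlapped. Of 10 tested endothelial genes 1 fell, Robo4 (-1.01, limma adjusted p = 0.0435), and 9 were not called, with a median of -0.86. Their means were lower with WIN 18,446 in 9 of the 10, against 54.8% of all genes tested. They were lower without overlap of the groups in 8, against 29.3% of all probe sets tested. An unadjusted p under 0.05 was given by limma to 7 of the 10, against 22.0% of all probe sets tested. The receptor Tek, the sialomucin Emcn and the receptor Flt1 differed by -1.17, -0.79 and -1.06 (adjusted p = 0.0509, 0.0809 and 0.12). The endothelial sum was 5958 and 7574 with control, and 5500 and 5267 with WIN 18,446, with Plvap at background. Sox18, which differed by 0.09, alone gave 34.8% to 49.7% of this sum. Without Sox18 the sums were 3741 and 4939 with control, and 2969 and 2651 with WIN 18,446. The part of vessel cells in the desmin result was not tested.

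Among the genes of the peritubular cells and stroma that have no contractile role, 1 of 18 fell, 0 rose and 17 were not called, with 9 genes lower and 9 higher and a median difference that rounds to 0. Osteoglycin (Ogn), a matrix proteoglycan, read 11.65 and 11.63 with control and 10.87 and 11.09 with WIN 18,446, and fell by 0.66 on the log2 scale (limma, adjusted p = 0.0418). The chemokine Cxcl12 and the proteoglycan Dcn differed by -0.19 and -0.53, and the transcription factor Tcf21 by -0.13 (adjusted p = 0.147, 0.222 and 0.367). The summed level of this list was 234607 and 245718 with control, and 236329 and 235894 with WIN 18,446, so that the groups overlapped. Mfap5 lay at background on every array. The receptor Pdgfrb stands on this list and on that of the pericytes.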

How the data were processed

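The authors deposited log2 levels, 1 column per array, for 45101 probe sets of 4 arrays. RMA and GCRMA are both named in the submitters' processing notes; which of them gave the table is not stated. Values between 1.74 and 16.2, not centred, show the log2 scale. Gene names come from GEO's array annotation: 34945 probe sets have 1 symbol, 932 several and 9160 are unnamed here, and 34741 of the first were found by gene ID in RefSeq, with 0 symbols changed. The 64 control probe sets were left out.

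The comparison used lmFit and trended eBayes of limma 3.58.1 under R 4.3.3 (2 residual and 3.19 prior degrees of freedom), two-sided, with Benjamini-Hochberg adjustment over all 20895 probe sets tested. An exact permutation test of 2 against 2 cannot go below 0.333, so none is given. Data were simulated with the real means and the moderated variances of these 20895 probe sets, with 200 of them changed in each of 20 runs. Found were 1.5% of changes by 0.25 log2 units, 19.1% by 0.5, 66.2% by 1 and 96.5% by 2. Of the calls, 11.45% were false, more than the nominal rate. These rates depend on the share of probe sets changed, so they may not hold for the real comparison.

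The members and gene lists were chosen with earlier results of these data known. All probe sets of the 10 members are given. From the other lists the text names the 4 tested genes with the lowest p, extended to at most 6 when called, and genes it singles out, which were chosen after their values were seen, as were Srf, Mrtfa and Amh. The lists are SRF and myocardin-family factors, other contractile genes, peritubular and stromal, pericyte, striated muscle, endothelial, Sertoli, Leydig, germ, macrophage and epithelial genes. Alternatives covered the level filter, normalization, moderation, a replicate block, 1 probe set per gene, the threshold and each array left out.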

Additional observations from a re-analysis of the deposited data

How the results depend on the processing

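The count of called smooth muscle probe sets, 1 with all arrays, was 0 with no level filter (Des adjusted p = 0.186, 4 of 19 at an unadjusted p under 0.05), 0 with a mean of at least 7 (which leaves Des out; 4 of 8 unadjusted) and 0 without any 1 of the 4 arrays (3 to 5 of 10 unadjusted); a group left with a lone array borrows its spread from the other group. The other alternatives run kept 1 call, Des, with adjusted p-values from 0.0142 to 0.0491. Why the call was lost in some alternatives was not tested. Fits with 1 array left out also rest on fewer arrays. Over all probe sets, 1083 were called, against 3 with no level filter, 372 without a variance trend, 2216 at an adjusted p under 0.10, and 0 to 1398 with 1 array left out, the 0 being without either control array (2455 and 2820 at an unadjusted p under 0.05) and 664 without treated array 1. Without control array 1 the differences of Smtn and of the Cald1 probe set 1424768_at reversed, to -0.17 and -0.0040; over the arrays left out they ran up to 0.30 and 0.55. Of 136 recomputed member differences, 129 kept direction and side of the threshold. Of the others, 2 reversed, and the rest were Des losing its call. Only Des had a call to lose, and several alternatives leave a difference as it was. The count is therefore no measure of stability. The replicate numbers are not said to pair samples, and the deviations of same-numbered arrays correlated at 0.014. With the replicate block, limma called 1467 probe sets, with Des at an adjusted p of 0.0303 and 0 other members. Genes near background cannot be compared here, which takes in Cnn1 and nearly all of Actg2.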

Other observations

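The genes of Sertoli cells, which the peritubular cells enclose in the testis cords, were mostly lower with WIN 18,446. In the Sertoli list limma called 7 of 13 tested genes, each of them lower, against 3.46% of all genes called as lower. The median log2 difference of the list was -0.43, with 10 genes lower and 3 higher. Nr0b1, an orphan nuclear receptor, had the largest difference of the list, -3.69 (adjusted p = 0.00387). Cldn11, the claudin of Sertoli tight junctions, differed by -1.25 and the transcription factor Sox9 by -1.15 (adjusted p = 0.00781 and 0.0121). Dhh, the hedgehog ligand that Sertoli cells send to peritubular and Leydig cells, fell from 13.53 and 13.55 with control to 13.12 and 13.10 with WIN 18,446 (adjusted p = 0.0268). Wt1 and Sox8 differed by -0.58 and -0.82 (adjusted p = 0.0374 and 0.0435). Amh, the anti-Müllerian hormone, was 1.25 higher and was not called (limma, adjusted p = 0.0575). Its groups did not overlap, as in 53.1% of all probe sets tested.

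Of 9 germ cell genes limma called 2, Sall4 (-0.60) and Tdrd9 (-1.01), both lower, against 3.46% of all genes called as lower. Dazl and Ddx4 differed by 0.29 and 0.24 (limma, adjusted p = 0.113 and 0.23). Of 6 Leydig cell genes 0 were called and 3 had an unadjusted p under 0.05 (limma), against 22.0% of all probe sets tested. Hsd17b3 differed by 0.92, and Cyp11a1, Hsd3b1 and Star by -0.32, -0.31 and -0.69 (adjusted p from 0.113 to 0.258). Limma called 0 of 2 macrophage genes, Lyz2 (-0.62) and Mrc1 (0.10), and 0 of 4 epithelial genes of the epididymal, mesonephric and mesothelial list, Cdh1 (0.25), Epcam (0.12), Krt8 (0.15) and Krt18 (-0.01). In both lists 0 genes had an unadjusted p under 0.05.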
